A study of Homo sapiens with 12 samples.

Results

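IRAK1, TRAF6, SMAD4, NUMB, ROCK1 and HNRNPD are 6 genes that are known targets of the microRNA miR-146a. They were examined in K562, an established human erythroleukaemia line derived from chronic myeloid leukaemia. Each gene was taken by its symbol from a table of 38272 loci, using the locus of highest mean where a symbol stood at several loci, and was set beside the locus named MIR146A. All 6 were among the 32866 loci that reached at least 1 FPKM (mapped fragments scaled to transcript length and library size) in at least 3 of the 12 libraries.

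The study sequenced total RNA in 4 groups of 3 labelled biological replicates. The TNFSG group received an siRNA (Si623) and a GapmeR (Gap01) against a long non-coding RNA, then tumour necrosis factor (TNF) at 20 ng/mL for 6 hours. The TNF group received the mock transfection (SiCt and GapCt) and the same cytokine, the SG group Si623 and Gap01 without cytokine, and the control group the mock transfection alone. Every group was therefore transfected, and nothing in the labels says whether replicates came from separate cultures, so p-values measure the spread between these samples.

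MicroRNAs guide Argonaute proteins to messenger RNAs by pairing of the seed, bases 2 to 8 of the mature strand, usually with a site in the 3′ UTR, and lower the translation or stability of the target. MIR146A is transcribed under NF-κB, and miR-146a is best known in immune cells for restraining interleukin-1 and Toll-like receptor signalling through IRAK1 and TRAF6. SMAD4, NUMB, ROCK1 and HNRNPD link the same microRNA to transforming growth factor β signalling, Notch signalling, actomyosin contraction and messenger RNA decay.

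The mature sequences are shown because the seed defines what counts as a match in the target genes. They come from RefSeq (GRCh38.p14), miR-146a from chr5:160485372-160485393 and miR-146b from chr10:102436520-102436542, both on the plus strand. Capitals mark the seed.
hsa-miR-146a-5p: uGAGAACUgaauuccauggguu
hsa-miR-146b-5p: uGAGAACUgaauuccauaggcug
The seed is the same in both, the first 17 bases are identical, and 2 bases differ over the shorter length. A target match by sequence is therefore a match to either microRNA.

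All 6 genes held the complement of this seed, AGTTCTC, in the 3′ UTR of their longest protein-coding transcript (GENCODE release 29, hg38; searched on the transcript strand only). The 9 matches are printed because they are the sequence feature that the genes share. Each line is a 30-base window of the transcript, 5′ to 3′, with the match in capitals.
IRAK1 match 1: aaatccggaagtcaaAGTTCTCatggtcag
IRAK1 match 2: gttctcatggtcagaAGTTCTCatggtgca
TRAF6 match 1: tgctctagaaagttgAGTTCTCattttttt
TRAF6 match 2: tccttggaaaacttaAGTTCTCattcaccc
TRAF6 match 3: aatatcgtggaatctAGTTCTCagggagac
SMAD4 match: ttttaaaggcagagaAGTTCTCaaagttaa
NUMB match: tagaatattttaaatAGTTCTCagatatta
ROCK1 match: agccttggaagatagAGTTCTCccttgtga
HNRNPD match: tgaagtttaattctgAGTTCTCattaaaag
IRAK1 (minus strand) has its windows at chrX:154011805-154011834 and chrX:154011789-154011818, which overlap. TRAF6 (minus strand) has them at chr11:36489351-36489380, chr11:36489286-36489315 and chr11:36488552-36488581. The SMAD4 window lies at chr18:51078842-51078871 on the plus strand. On the minus strand, NUMB has its window at chr14:73275941-73275970, ROCK1 at chr18:20949539-20949568 and HNRNPD at chr4:82354000-82354029.

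Of the 9 matches, 8 were followed by A, the base that extends a seed match on its 3′ side, and the ROCK1 match was not. The 2 IRAK1 matches started 40 and 56 bases into a 3′ UTR of 1359 bases. The 3 TRAF6 matches started at 473, 538 and 1272 of 2811 bases. The matches of SMAD4, NUMB, ROCK1 and HNRNPD started at 390 of 6572, 623 of 1360, 1831 of 4478 and 171 of 1687 bases.

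Over the 19032 genes with a 3′ UTR, 11.1% held at least 1 match, 4.19% held 1 followed by A, 1.55% held at least 2 and 0.279% at least 3. TRAF6, with 3 matches each followed by A, belonged to the 3 genes of the 19032 with that many. Among 3′ UTRs within 10% of the same length, at least 1 match was found in 40.6% for SMAD4 and 28.8% for ROCK1, whose UTRs are long. The like share was 8.24% for IRAK1, 17.8% for TRAF6, 8.33% for NUMB and 11.3% for HNRNPD, and as many matches as the gene itself had were found in 0.434% for IRAK1 and 0.0910% for TRAF6. A match is a description of the sequence, and the genes are reported targets partly because such matches were searched for.

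**Figure D1:**
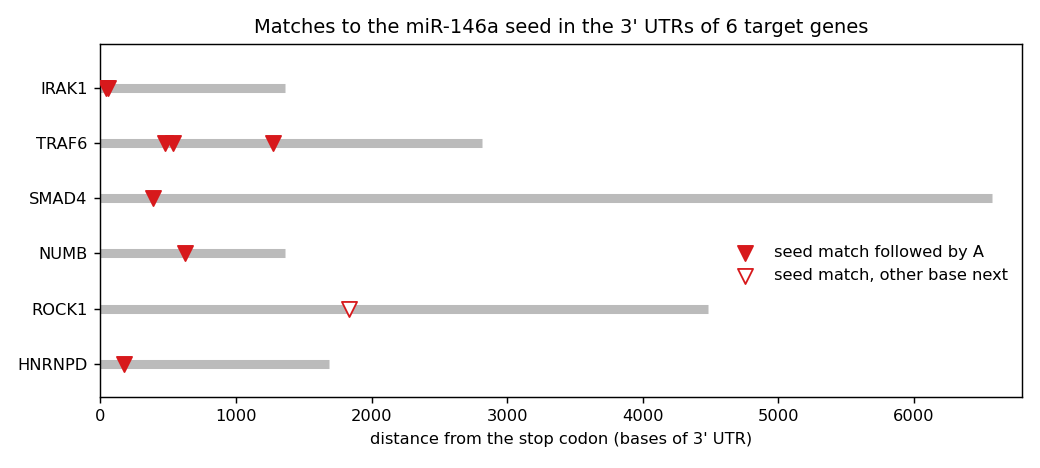
Position of the seed matches along the 3′ UTR of each gene, in bases from the start of the UTR, with UTR length drawn to scale. Filled markers are the 8 matches followed by A, the open marker is the ROCK1 match, and the 2 IRAK1 markers, at 40 and 56 bases, overlap at this scale.

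GENCODE release 29 places IRAK1 at 154010500 to 154019980 on chromosome X and TRAF6 at 36487027 to 36510272 on chromosome 11, both on the minus strand. SMAD4 lies at 51028394 to 51085045 (plus strand) and ROCK1 at 20946906 to 21111851 (minus strand) of chromosome 18. NUMB is at 73275107 to 73458617 on chromosome 14 and HNRNPD at 82352498 to 82374503 on chromosome 4, both on the minus strand. The table joins IRAK1 with another gene at 1 locus, and the locus of SMAD4 also carries ELAC1, 40272 bases away. Values given here for IRAK1 and SMAD4 are those of the joined loci, whose genes cannot be separated. Second loci named IRAK1 and HNRNPD held few reads, 0 to 10 and 0 to 24 per library by the smallest whole-number fit, and were not used.

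Relative depth, read from the steps between low FPKM values, ran from 0.857 of the mean in control replicate 3 to 1.31 in TNFSG replicate 1. Pearson's r between libraries over the loci tested on the log2 scale ran from 0.814 to 0.880. All 10 K562 markers looked for averaged at least 1 FPKM, the highest being HBG2 with a mean of 2183 FPKM, while HBG1 had group means of 0.795 to 2.56 FPKM. Limma called 1 of the 10, NFE2, lower in both TNF comparisons, where it called 1.45% and 1.64% of all loci in either direction. At an unadjusted limma p under 0.05 there were 5 of 10 in TNF against control and 4 in TNFSG against SG. Over all loci, 11.2% and 11.4% had such a p. In TNF averaged over both transfections, added after the values were seen, limma called KLF1, NFE2 and EPOR lower, where 1.55% of all loci were. NFE2 averaged 44.8 FPKM in TNFSG, 50.0 in TNF, 100.1 in SG and 99.1 in control. NFKBIA, the NF-κB inhibitor that NF-κB itself induces, averaged 139 FPKM in TNFSG, 138 in TNF, 12.02 in SG and 10.9 in control, and ICAM1, an adhesion molecule, averaged 361, 339, 16.0 and 15.1 FPKM in the same order. Markers of other cell types were not at 0: 2 of 5 lymphoid, 2 of 4 epithelial, 3 of 5 fibroblast and 2 of 4 endothelial markers averaged at least 1 FPKM, with summed levels of 16.0 to 50.3, 54.3 to 74.4, 21.4 to 1178 and 15.9 to 57.2 FPKM over libraries. The fibroblast range was set by COL1A2, a fibrillar collagen gene, which had 406 FPKM in TNFSG replicate 2, 1098 in TNF replicate 1 and 127 in TNF replicate 2, against 0 to 6.39 in the other libraries. Its part in the results was not tested.

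The MIR146A locus rose with TNF under both transfections, and among cells given TNF it fell in those with Si623 and Gap01. The hairpin lies at 160485352 to 160485450 on the plus strand of chromosome 5, within the gene MIR3142HG at 160438594 to 160487426. The locus had 7.77, 4.51 and 4.03 FPKM in TNFSG and 28.1, 25.6 and 21.2 in TNF. In SG it had 0, 0.0566 and 0.0630 FPKM, and in control 0.360, 0.569 and 0.159.
None of the 4 groups overlapped another. The reads behind the values, by the smallest whole-number fit, numbered 598, 240 and 226 in TNFSG and 1834, 1491 and 1125 in TNF, but 0 to 4 in SG and 8 to 34 in control, so levels without TNF rest on few reads. Reads of 50 bases from a long-RNA locus do not measure the mature strand of 22 bases, and the table holds no value for mature miR-146a.

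On the log2(FPKM + 1) scale, which understates changes of low loci, the MIR146A locus changed by 4.25 ± 0.22 (SE) in TNF against control (limma adjusted p = 1.2e-05). In TNFSG against SG it changed by 2.59 ± 0.22 (limma adjusted p = 0.000271). In TNFSG against TNF it changed by -2.05 ± 0.22 (limma adjusted p = 0.0191), and in SG against control by -0.38 ± 0.22 (limma adjusted p = 0.628). With a pseudocount of 0.1 in place of 1, these changes were 5.85 in TNF against control, 5.28 in TNFSG against SG and -1.65 in SG against control, so the sizes of the changes against SG and control depend on the pseudocount. The call in TNFSG against TNF was lost when any 1 of the 6 libraries other than TNFSG replicate 1 was left out, the highest limma adjusted p being 0.0831 and the changes running from -2.29 to -1.89. A pseudocount of 0.1 ended this call too (limma adjusted p = 0.0968), as did a fit of TNFSG and TNF libraries alone (0.214) or of replicates 2 and 3 (0.0824). The difference between the TNF responses of the transfections, -1.67 ± 0.31, had an unadjusted limma p of 0.0004 and an adjusted p of 0.470, and it was -0.57 (limma adjusted p = 1) with a pseudocount of 0.1. The comparisons share libraries: control serves both as the base of TNF and of SG, and TNFSG is set against both TNF and SG.

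MIR146B, which encodes the microRNA of the same seed on chromosome 10, was read at 4.74 to 13.3 FPKM. This locus had 12.7, 12.6 and 13.3 FPKM in TNFSG and 12.3, 6.52 and 11.3 in TNF. In SG it had 9.08, 4.74 and 6.35 FPKM, and in control 8.22, 5.60 and 5.60.
TNFSG lay above TNF and SG without overlap, as did 10% and 8.13% of all loci, while TNF and control overlapped. No change of this MIR146B locus passed the adjusted threshold: the largest, in TNFSG against SG, was 0.88 ± 0.26 (limma adjusted p = 0.175). The second locus named MIR146B was not near-empty. By the smallest whole-number fit it held 127 to 199 reads in TNFSG, 85 to 196 in TNF, 59 to 86 in SG and 36 to 114 in control. Its changes are not given here.

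In the fit reported, which has no term for replicate number, none of the 6 target genes had a limma adjusted p under 0.05 in the 5 comparisons. Only TRAF6 and NUMB had groups with TNF that stood apart from the matching group without it. HNRNPD averaged 199 FPKM, IRAK1 45.0, SMAD4 29.3, NUMB 18.6, ROCK1 12.8 and TRAF6 5.19, on a scale that is per length and so can be compared between genes. HNRNPD stood above 97.7% of the loci tested and TRAF6 above 59.5%. In that order, neighbours did not overlap over the 12 libraries except NUMB, at 14.3 to 24.0 FPKM, and ROCK1, at 11.2 to 14.9 FPKM. In bulk RNA, fewer cells with a transcript and less of it per cell cannot be told apart.

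**Figure D2:**
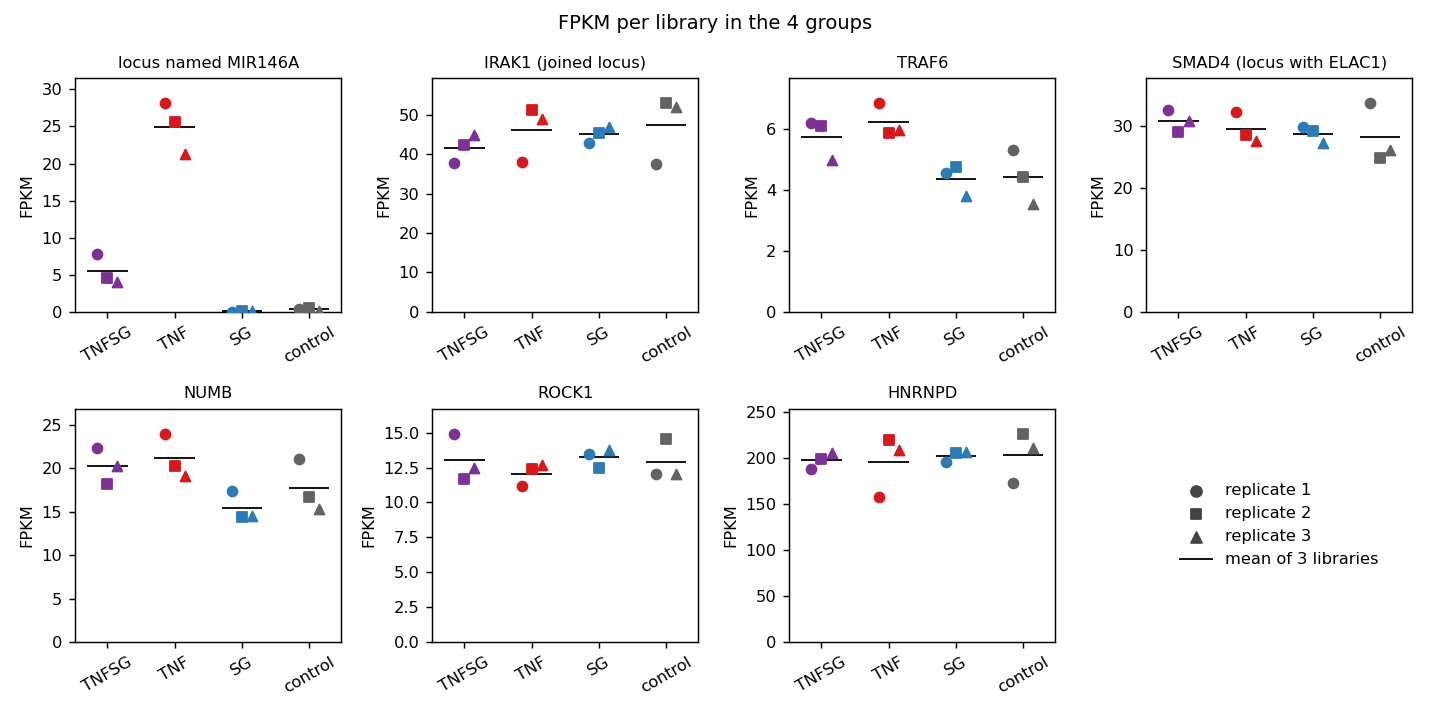
FPKM of the MIR146A locus and the 6 target genes in each library (linear axes from 0), with TNFSG, TNF, SG and control from left to right, points for replicates and bars for group means. The MIR146A groups are separate, with 4.03 to 7.77 FPKM in TNFSG and 21.2 to 28.1 in TNF, whereas these groups overlap for every target gene.

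IRAK1 encodes the kinase that joins activated interleukin-1 and Toll-like receptors through MyD88 and passes the signal to TRAF6. The joined IRAK1 locus had 37.7, 42.2 and 44.9 FPKM in TNFSG and 38.1, 51.3 and 48.9 in TNF. SG libraries had 42.9, 45.3 and 46.9 FPKM, and in control 37.4, 52.9 and 51.8.
All 4 groups overlapped, and replicate 1 was the lowest library of each. The change was -0.034 (95% interval -0.37 to 0.30) in TNF against control and -0.11 (-0.45 to 0.22) in TNFSG against SG. It was -0.14 (-0.47 to 0.20) in TNFSG against TNF and -0.056 (-0.39 to 0.28) in SG against control, with limma adjusted p values between 0.851 and 0.972 over the 4 comparisons.

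TRAF6, the ubiquitin ligase downstream of IRAK1 that leads to activation of TAK1 and the IκB kinases, was the target with the most seed matches. It had 6.18, 6.09 and 4.98 FPKM in TNFSG and 6.83, 5.88 and 5.97 in TNF. SG libraries had 4.54, 4.75 and 3.78 FPKM, and in control 5.31, 4.42 and 3.52.
Every library with TNF lay above every library without it under the same transfection, although the ranges of TNFSG and control overlapped. TRAF6 averaged 6.23 ± 0.528 FPKM in TNF and 4.42 ± 0.894 in control (SD, n = 3 each), a change of 0.43 ± 0.15 (95% interval 0.091 to 0.76). The unadjusted limma p was 0.0180 and the adjusted p was 0.282. It averaged 5.75 ± 0.668 FPKM in TNFSG and 4.36 ± 0.507 in SG, a change of 0.33 ± 0.15 (-0.0032 to 0.67; limma adjusted p = 0.444).
Between TNFSG and TNF the groups overlapped, and the change was -0.10 (-0.44 to 0.23; limma adjusted p = 0.896). Between SG and control it was -0.0071 (-0.34 to 0.33; limma adjusted p = 0.998).

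SMAD4 encodes the common partner of the receptor-activated SMAD proteins in transforming growth factor β and bone morphogenetic protein signalling. The joined SMAD4 locus had 32.6, 29.1 and 30.8 FPKM in TNFSG and 32.3, 28.5 and 27.6 in TNF. The SG libraries stood at 29.9, 29.1 and 27.2 FPKM, and in control 33.6, 24.9 and 26.0.
The groups overlapped in all 4 comparisons, and replicate 1 was the highest library of each group. The change was 0.072 (95% interval -0.18 to 0.33) in TNF against control and 0.096 (-0.16 to 0.35) in TNFSG against SG. It was 0.062 (-0.19 to 0.32) in TNFSG against TNF and 0.039 (-0.21 to 0.29) in SG against control, with limma adjusted p values between 0.838 and 0.945.

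NUMB encodes an endocytic adaptor that antagonises Notch. It had 22.3, 18.2 and 20.3 FPKM in TNFSG and 24.0, 20.3 and 19.1 in TNF. In SG it had 17.4, 14.3 and 14.5 FPKM, and in control 21.1, 16.7 and 15.3.
TNFSG lay above SG without overlap, while TNF and control overlapped through control replicate 1. NUMB averaged 20.3 ± 2.04 FPKM in TNFSG and 15.4 ± 1.74 in SG (SD, n = 3 each), a change of 0.38 ± 0.14 (95% interval 0.064 to 0.69). The unadjusted limma p was 0.0230 and the adjusted p was 0.315. In TNF against control the change was 0.25 ± 0.14 (-0.064 to 0.56; limma adjusted p = 0.595).
Between TNFSG and TNF the change was -0.055 (-0.37 to 0.26; limma adjusted p = 0.947), and between SG and control it was -0.18 (-0.49 to 0.13; limma adjusted p = 0.725).

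ROCK1 encodes a serine/threonine kinase that drives actomyosin contraction, and it was the target whose seed match was not followed by A. It had 14.9, 11.6 and 12.5 FPKM in TNFSG and 11.2, 12.4 and 12.7 in TNF. The SG libraries stood at 13.5, 12.4 and 13.7 FPKM, and in control 12.04, 14.6 and 12.1.
The groups overlapped in all 4 comparisons. The change was -0.085 (95% interval -0.33 to 0.16) in TNF against control and -0.026 (-0.28 to 0.22) in TNFSG against SG. It was 0.097 (-0.15 to 0.35) in TNFSG against TNF and 0.038 (-0.21 to 0.29) in SG against control, with limma adjusted p values between 0.861 and 0.968.

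HNRNPD encodes AUF1, which binds AU-rich elements and directs the decay of messenger RNAs that hold them. It had 188, 198 and 205 FPKM in TNFSG and 158, 219 and 208 in TNF. In SG it had 196, 205 and 206 FPKM, and in control 173, 226 and 210.5.
The groups overlapped in all 4 comparisons, and replicate 1 was the lowest library of each group. The change was -0.063 (95% interval -0.36 to 0.23) in TNF against control and -0.037 (-0.33 to 0.26) in TNFSG against SG. It was 0.029 (-0.27 to 0.33) in TNFSG against TNF and 0.0025 (-0.29 to 0.30) in SG against control, with limma adjusted p values between 0.925 and 1.

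In TNF against control, which asks what TNF does in mock-transfected cells, 0 of 6 targets were called by limma, where 1.45% of all loci tested were. At an unadjusted p under 0.05, 1 of 6 was past it (TRAF6), where 11.2% of all loci were. TRAF6 was also the 1 target whose TNF libraries all lay above control, as did 7.59% of all loci, while 8% lay below it. The median change of the 6 was 0.019, against -0.021 over all loci.

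In TNFSG against SG, the TNF response of cells with Si623 and Gap01, 0 of 6 were called, where 1.64% of all loci were. NUMB was the 1 target with an unadjusted p under 0.05, where 11.4% of all loci had one. TRAF6 and NUMB lay above SG without overlap, as did 8.13% of all loci, while 10% lay below it, and TRAF6 lay above in both TNF comparisons, as did 3.34%. The median change of the 6 was 0.035, against -0.028 over all loci.

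In TNFSG against TNF, where the MIR146A locus was lower, 0 of 6 were called and 0 had an unadjusted p under 0.05, where 0.128% of all loci were called and 9.11% had one. The groups overlapped for all 6, where 10% of all loci stood higher and 4.73% lower in TNFSG without overlap. The median change of the 6 was -0.013, against 0.081 over all loci, and 3 of the 6 changes were positive. The 95% intervals of the 6 together ran from -0.47, the lower end for IRAK1, to 0.35, the upper end for ROCK1. A change beyond these bounds lay outside the interval of each gene. Within them, the changes that an interval holds differ from gene to gene.

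In SG against control, 0 of 6 were called and 0 had an unadjusted p under 0.05, where 0.170% of all loci were called and 9.86% had one. The groups of all 6 overlapped, where 10.3% of all loci stood higher and 4.62% lower in SG without overlap. The median change of the 6 was -0.0023, against 0.085 over all loci. The scaling of the libraries decided the sign of changes this small for SMAD4, ROCK1 and HNRNPD, so no direction is given for them after Si623 and Gap01.

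The difference of the TNF responses, TNFSG against SG minus TNF against control, ran from -0.094 for TRAF6 to 0.13 for NUMB. None of the 6 was called or had an unadjusted p under 0.05, where 0.00913% of all loci were called and 3.75% had one. The 95% intervals of the 6 ran from -0.57 to 0.57.

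**Figure D3:**
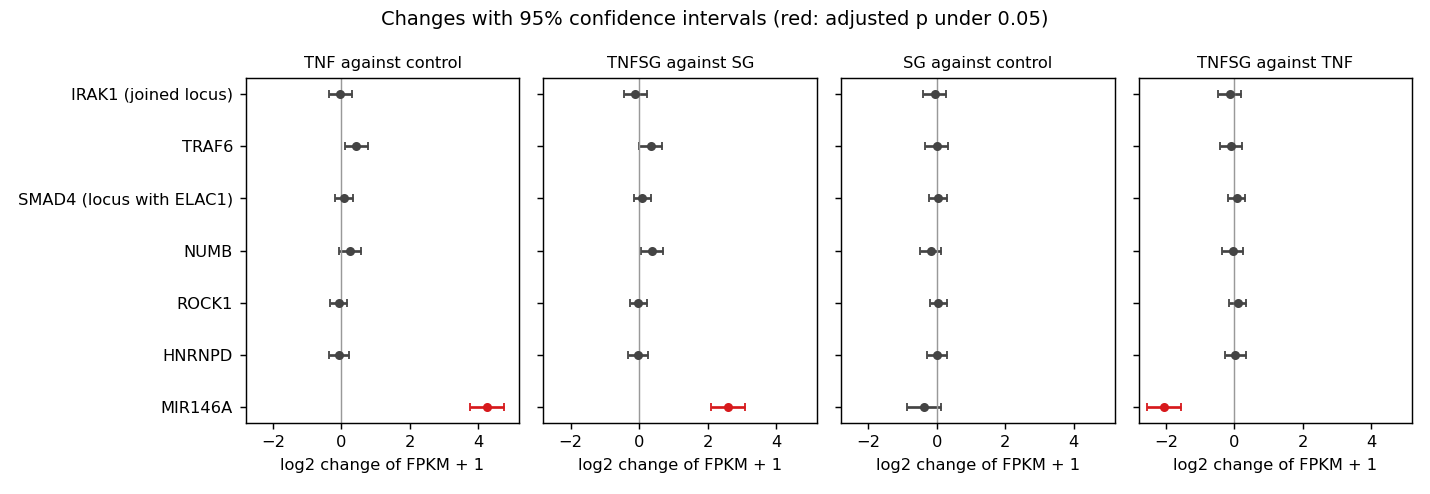
Log2 change with its 95% interval for the MIR146A locus and the 6 target genes in the 4 comparisons between groups, from limma on log2(FPKM + 1). The intervals of the target genes lie between -0.49 and 0.76, whereas MIR146A changed by 4.25 in TNF against control and by -2.05 in TNFSG against TNF.

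An average of each factor over the other, added after the values were seen, gives narrower intervals. TNF over both transfections changed TRAF6 by 0.38 ± 0.11 (95% interval 0.14 to 0.62), with an unadjusted limma p of 0.00535 and an adjusted p of 0.0883. NUMB changed by 0.31 ± 0.10 (0.091 to 0.53), with an unadjusted p of 0.0105 and an adjusted p of 0.133. These 2 of 6 had an unadjusted p under 0.05, where 15.9% of all loci had one, and 0 of 6 were called, where 4.38% were. A fit with a term for replicate number called both, TRAF6 with a limma adjusted p of 0.0253 and NUMB with 0.0105, among 2104 called loci of 32866.

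Targeting over both treatments gave no called target (0 of 6), where 1.11% of all loci were called, and no target with an unadjusted p under 0.05, where 14.6% of all loci had one. The change of lowest p was that of NUMB, -0.12 (95% interval -0.34 to 0.10; limma adjusted p = 0.637). In the same average the MIR146A locus changed by -1.21 ± 0.16 (limma adjusted p = 0.00869). With a pseudocount of 0.1 that change was -1.94, and with replicates 2 and 3 alone its call was lost (-1.28, limma adjusted p = 0.0524).

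For 4 of the 6 targets replicate 1 stood at the same end of every group. Replicate 1 was the lowest library of all 4 groups for IRAK1 and HNRNPD, as it was for 5.23% of all loci, and the highest of all 4 for SMAD4 and NUMB, as for 5.11%. Replicate 2 held these places in 2.22% and 2.66% of all loci, and replicate 3 in 2.75% and 2.73%. Titles give same-numbered libraries the same letter, but the labels do not say what a replicate number stands for. The depth of replicate 1 was 1.31 in TNFSG, 1.11 in TNF, 0.871 in SG and 1.09 in control.

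**Figure D4:**
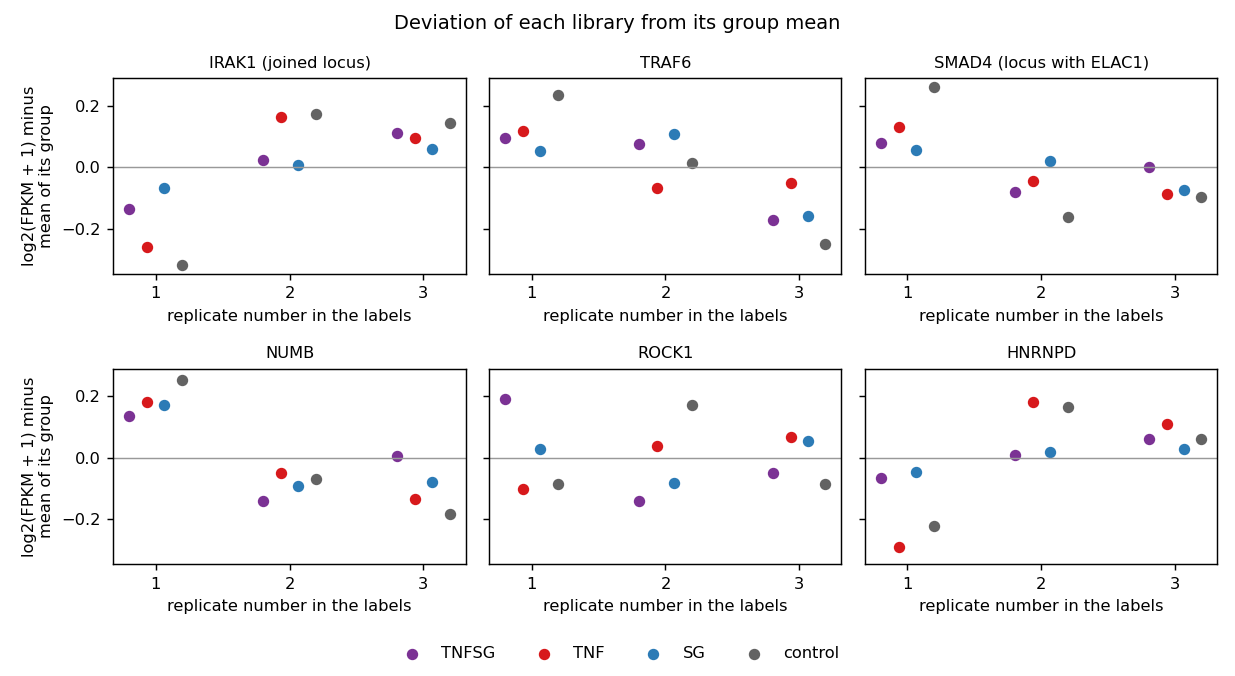
Deviation of each library from its group mean on the log2(FPKM + 1) scale (vertical axis) for the 6 target genes, by replicate number (horizontal axis) and coloured by group. Replicate 1 is lowest in all 4 groups for IRAK1 and HNRNPD and highest in all 4 for SMAD4 and NUMB.

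The loci whose profile over the 12 libraries was closest to each target were found by the root mean square difference of centred log2 values, among 11838 loci of a single gene name with a mean of at least 5 FPKM. They were NUP54 (0.0617) and ADAT2 (0.0624) for IRAK1, and CCDC82 (0.0805) and LPIN1 (0.0827) for TRAF6. For SMAD4 they were ZKSCAN1 (0.0566) and TPP1 (0.0607), and for NUMB B3GALT6 (0.0798) and LPGAT1 (0.0951). For ROCK1 they were COPS7A (0.0638) and TRAPPC3 (0.0685), and for HNRNPD ANP32A (0.0362) and XRCC5 (0.0376). The standard deviation of the targets' own profiles ran from 0.118 for ROCK1 to 0.246 for TRAF6.

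The other genes of the targets' pathways were counted in fixed lists. In the interleukin-1 and Toll-like receptor list, 21 of 24 genes were tested, and 3 rose in TNF against control, where 1.18% of all loci did. The same 3 rose in TNFSG against SG, where 1.37% of all loci did. IRAK2, a kinase related to IRAK1, averaged 19.7 FPKM in TNFSG and 1.68 in SG, a change of 2.96 (limma adjusted p = 8.67e-06), and 18.0 in TNF against 1.65 in control, a change of 2.84. TIFA, an adaptor that binds TRAF6, averaged 12.6 FPKM in TNFSG and 1.22 in SG, a change of 2.61 (limma adjusted p = 3.31e-05), and 11.6 in TNF against 1.32 in control. TRAF3, a TRAF protein of interferon and alternative NF-κB signalling, averaged 14.2 FPKM in TNFSG and 7.61 in SG, a change of 0.82 (limma adjusted p = 0.0027), and 13.8 in TNF against 6.83 in control, a change of 0.93. The TRAF3 call was lost in TNFSG against SG with replicates 2 and 3 alone (limma adjusted p = 0.0533) and in TNF against control with only the groups compared (0.074). None of the 3, chosen by these calls, had TNF and control libraries that overlapped, and 7.59% of all loci lay higher in TNF without overlap. The median of the 21 was 0.24 in TNF against control, where that of all loci was -0.021, and 0.0074 in TNFSG against SG, where that of all loci was -0.028. IRAK2 and TRAF3 held no seed match, TIFA held 1 that was not followed by A, and 2 of the 24 genes held one.

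Among 17 other reported targets of miR-146a, 12 were tested, and IRAK2 and RELB rose in both TNF comparisons. Over all loci, 1.18% rose in TNF against control and 1.37% in TNFSG against SG. RELB, the NF-κB subunit of the alternative pathway, averaged 48.2 FPKM in TNFSG and 2.97 in SG, a change of 3.66 (limma adjusted p = 1.85e-05), and 45.3 in TNF against 2.35 in control, a change of 3.81. Neither held a seed match, whereas 12 of the 17 did, 10 of them followed by A. In TNFSG against TNF and in SG against control limma called 0 of the 12, with 2 and 1 at an unadjusted p under 0.05, where 9.11% and 9.86% of all loci had one. The medians were 0.11 and 0.10 there, against 0.081 and 0.085 over all loci.

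In the SMAD list, with all 23 genes tested, SMAD3 and SMURF1 rose in both TNF comparisons. Over all loci, 1.18% rose in TNF against control and 1.37% in TNFSG against SG. An unadjusted limma p under 0.05 was found for 8 and 6 of the 23, where 11.2% and 11.4% of all loci had one. SMAD3, a receptor-activated partner of SMAD4, averaged 100.3 FPKM in TNFSG and 42.6 in SG, a change of 1.22 (limma adjusted p = 5.35e-05), and 97.4 in TNF against 41.1 in control. SMURF1, a ubiquitin ligase for SMAD proteins, averaged 14.5 FPKM in TNFSG and 11.1 in SG, a change of 0.35 (limma adjusted p = 0.0453).
SMURF1 averaged 15.8 FPKM in TNF and 11.96 in control, a change of 0.38 (limma adjusted p = 0.0326). Its call was lost without any of the 6 libraries in TNFSG against SG, where the highest limma adjusted p was 0.151, and without any but control replicate 2 in TNF against control, where it was 0.127. Fitting only the groups compared (limma adjusted p = 0.128 and 0.283) or replicates 2 and 3 alone (0.230 and 0.217) ended both calls, and with no filter that in TNFSG against SG was lost (0.0542). Neither gene held a seed match, and 4 of the 23 did. The median change of the 23 was -0.057 in TNFSG against SG, where that of all loci was -0.028, and -0.062 in TNF against control, where that of all loci was -0.021.

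In the Notch list, 19 of 20 genes were tested, and 1 rose in TNF against control, where 1.18% of all loci did. An unadjusted limma p under 0.05 was found there for 6 of the 19, where 11.2% of all loci had one. NUMBL, the paralogue of NUMB, averaged 11.5 FPKM in TNF and 6.28 in control, a change of 0.78 (limma adjusted p = 0.0366). Leaving out control replicate 2 or 3, or TNF replicate 1 or 3, ended that call, the highest limma adjusted p being 0.149, as did fitting only the groups compared (0.183) or replicates 2 and 3 alone (0.194). In TNFSG against SG, NUMBL averaged 10.0 and 7.95 FPKM, a change of 0.31 (limma adjusted p = 0.495), and limma called 0 of the 19, with 3 at an unadjusted p under 0.05, where 11.4% of all loci had one.

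Limma called 0 of the 18 tested genes of the ROCK1 pathway (of 19) in TNF against control, with 6 at an unadjusted p under 0.05, and 0 in TNFSG against SG, with 4. It called 0 of the 16 tested RNA-binding proteins (of 17) in TNF against control, with 2 at an unadjusted p under 0.05, and 0 in TNFSG against SG, with 0. Over all loci, 11.2% had such a p in TNF against control and 11.4% in TNFSG against SG. No gene of the 6 pathway lists fell in either TNF comparison, and none was called in TNFSG against TNF, in SG against control or in the difference of the TNF responses.

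In TNF over both transfections, limma called 3 genes of the pathway lists lower, where 1.55% of all loci were, and they are named after their values were seen. ID1, an inhibitor of basic helix-loop-helix factors that SMAD signalling induces, averaged 11.6 FPKM in TNFSG, 12.4 in TNF, 27.2 in SG and 25.7 in control, a change of -1.11 (limma adjusted p = 0.0233). ID2, a related inhibitor, averaged 6.02 FPKM in TNFSG, 5.72 in TNF, 9.85 in SG and 9.82 in control, a change of -0.68 (limma adjusted p = 0.0199). ADAM10, a protease that cleaves Notch receptors, averaged 18.5 FPKM in TNFSG, 15.9 in TNF, 21.6 in SG and 19.7 in control, a change of -0.25 (limma adjusted p = 0.0238).
For all 3, the libraries with TNF lay below those without it under the same transfection. Taken singly, 8% of all loci did so in TNF against control and 10% in TNFSG against SG. The 3 were chosen by their calls in these same libraries, so this separation is no further support for them. Leaving out TNFSG replicate 1 or 2, TNF replicate 1 or 2, SG replicate 3 or control replicate 2 or 3 ended the ID1 call, with a limma adjusted p of at most 0.0612. The ID2 call ended without TNFSG replicate 2, SG replicate 2 or 3 or control replicate 2 (at most 0.0582). The ADAM10 call ended without TNFSG replicate 2 or 3, any SG library or control replicate 2 (at most 0.0678), and with replicates 2 and 3 alone all 3 calls were lost (0.102 to 0.163).

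**Figure D5:**
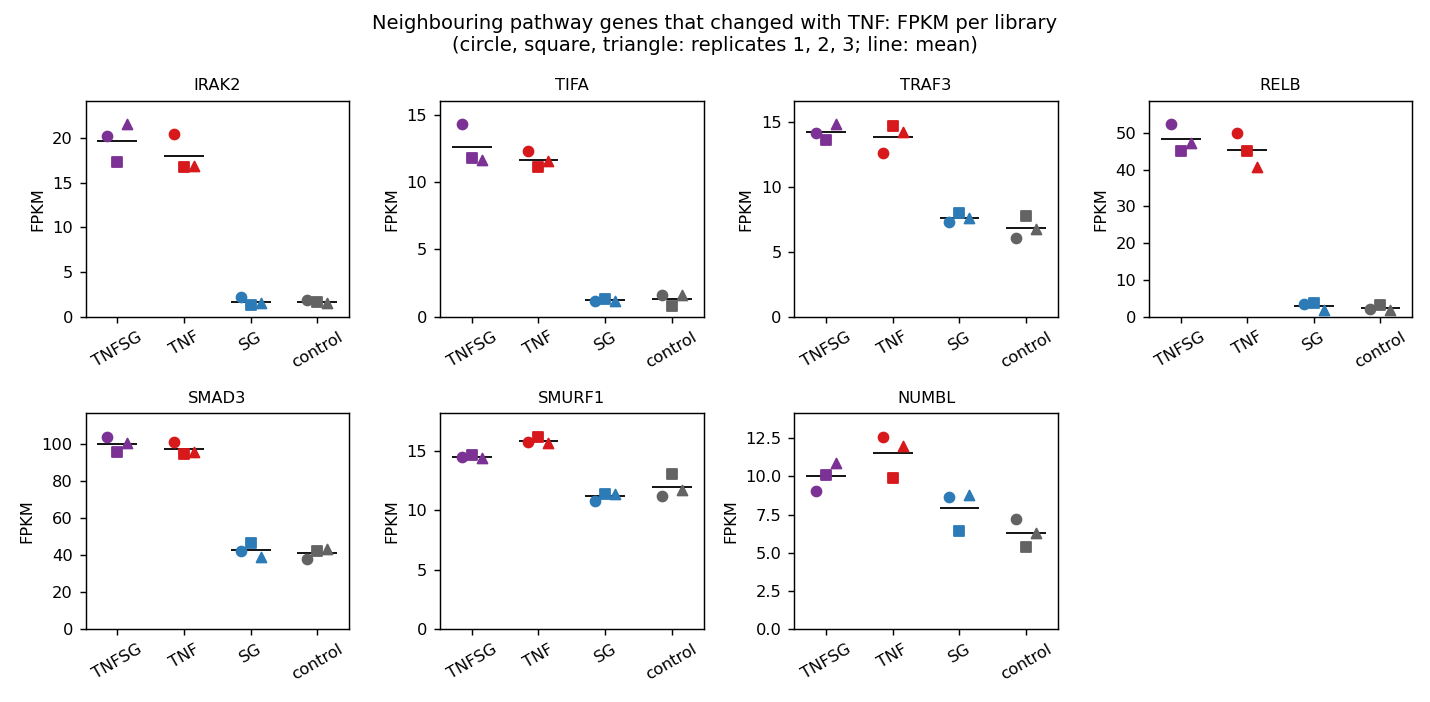
FPKM by library (linear axes from 0) of 7 pathway genes called by limma in TNF against control, with TNFSG, TNF, SG and control from left to right. IRAK2, TIFA, RELB, TRAF3 and SMAD3 lie higher in both groups with TNF, while SMURF1 and NUMBL differ less, with means of 14.5 and 10.0 FPKM in TNFSG and 11.1 and 7.95 in SG.

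Seed matches were also set beside the changes of all genes with a single-name locus and a 3′ UTR, as a description with no test. In TNFSG against TNF the median change was 0.083 for 208 genes with at least 2 matches, 0.018 for 420 genes with 1 match followed by A, 0.037 for 818 with 1 match not followed by A, and 0.053 for 9909 with none. In TNF against control the medians were -0.074, -0.047, -0.038 and -0.025 in the same order. The medians in SG against control were 0.024, 0.025, 0.037 and 0.057, and those in TNFSG against SG were -0.040, -0.025, -0.054 and -0.033. Among genes with a mean of at least 5 FPKM, the medians in TNFSG against TNF were 0.023 for 156 genes with at least 2 matches and 0.040 for 7447 with none, so the order of these classes turned. In TNF against control the order held among these genes, with medians of -0.086, -0.060, -0.049 and -0.033. Quartiles were wide beside such medians: in TNF against control they were -0.24 and 0.13 for the 208 genes and -0.17 and 0.15 for the 9909. Genes with matches have longer 3′ UTRs, with medians of 5044, 2984 and 3132 bases in the classes with matches, against 1132 bases with none, and the part of UTR length in these medians was not tested.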

How the data were processed

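Single reads of 50 bases were aligned to hg38 with Bowtie2 2.2.9 and TopHat2 2.0.14 and quantified with Cufflinks (version not given), per the submitters' processing notes. Which annotation release they used is not given in the sources used here. As 1 table, the authors deposited FPKM per locus for 12 libraries, with no raw counts. FPKM sums ran from 925955 to 1083476 per library.

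Values were analysed as log2(FPKM + 1) for the 32866 loci that reached 1 FPKM in 3 or more libraries. limma 3.58.1 in R 4.3.3 was fitted to all 12 libraries (1 mean per group, trended variance, two-sided), p-values were adjusted by Benjamini-Hochberg over the whole table, and the threshold was 0.05. SE and 95% intervals come from this fit. The code was checked on simulated data. Whole reads were recovered for low loci as multiples of the smallest FPKM step within a tolerance of 0.03. This held for the MIR146A and MIR146B loci and for the low second loci, and for none of the 6 target loci, so no count test was run. The deviations of same-numbered libraries from their group means had r from -0.019 to 0.128 over 18 pairs, and from 0.017 to 0.128 over the pairs of replicate 1. Only 1 pair was over 0.1, so replicate numbers were not taken as pairs in the fit reported. For 2 targets the absence of a call depends on this choice. With the replicate block, limma called NUMB in TNFSG against SG (adjusted p = 0.0371). Over both transfections the same block called TRAF6 (limma adjusted p = 0.0253) and NUMB (0.0105).

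Named genes were the 6 targets, MIR146A, MIR146B, NFKBIA, ICAM1, the list genes called by limma (up to 4 per list and comparison) and the 2 loci closest in profile to each target. The targets and the lists were chosen with earlier results of these data known, and some genes are not reported here. 3′ UTRs were read from the transcripts of GENCODE release 29, and microRNA sequences from RefSeq (GRCh38.p14), with Python 3.11.15. Alternatives were pseudocounts of 0.1 and 0.5, no filter or 5 FPKM, median-ratio scaling, a replicate block, the compared groups alone, and each library left out. Replicates 2 and 3 alone, and the averages over a factor, were added after the data were seen.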

Additional observations from a re-analysis of the deposited data

How the results depend on the processing

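Under the alternatives, the 6 targets stayed uncalled by limma in the 5 comparisons, with 1 exception: the replicate block called 1 target in TNFSG against SG, NUMB (0.38, limma adjusted p = 0.0371). In the average of TNF over both transfections, the replicate block called TRAF6 (limma adjusted p = 0.0253) and NUMB (0.0105), which no other alternative did. The loci called in TNF against control numbered 831 with the block, 172 with only the groups compared, 248 with replicates 2 and 3, and 294 to 432 without 1 library (478 in the fit reported), where leaving out control replicate 2 or 3 or TNF replicate 3 took the count to 294, 297 and 318. In TNFSG against SG they numbered 843, 256 and 236 under these settings and 311 to 364 without 1 library, against 540, and any library but SG replicate 1 moved it by over 1.5 times. In SG against control they numbered 115 at 5 FPKM, 7 with only the groups compared, 25 with replicates 2 and 3, and 10 to 29 without 1 library, against 56. In TNFSG against TNF they numbered 97 at 5 FPKM, 78 with median-ratio scaling, 2 with only the groups compared, 5 with replicates 2 and 3, and 7 to 18 without 1 library, against 42. For the difference of the TNF responses they numbered 12 with a pseudocount of 0.1, 10 with replicates 2 and 3, and 1 to 6 without 1 library, against 3. For targeting over both treatments they numbered 701 at 5 FPKM, 938 with the block, 188 with replicates 2 and 3, and 132 to 340 without 1 library, against 365, and any library left out but control replicate 1 or TNF replicate 1 moved the count by over 1.5 times. For TNF over both transfections they numbered 719 with replicates 2 and 3, against 1441.

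Signs turned only among uncalled log2 changes near 0. With median-ratio scaling, SG against control gave -0.045 for SMAD4, -0.042 for ROCK1 and -0.083 for HNRNPD, TNFSG against TNF gave -0.0081 for SMAD4 and -0.043 for HNRNPD, TNFSG against SG gave 0.0017 for ROCK1, and targeting over both treatments gave -0.026 for SMAD4, -0.006 for ROCK1 and -0.063 for HNRNPD. With replicates 2 and 3 alone, SG against control gave 0.083 for TRAF6, -0.018 for ROCK1 and -0.086 for HNRNPD, TNFSG against TNF gave -0.0495 for ROCK1 and -0.082 for HNRNPD, the difference of the TNF responses gave -0.053 for SMAD4 and -0.031 for ROCK1, and targeting over both treatments gave -0.034 for ROCK1 and -0.084 for HNRNPD. Without 1 library, TNF against control ran from -0.19 to 0.095 for IRAK1, -0.0082 to 0.20 for SMAD4 and -0.175 to 0.081 for HNRNPD. SG against control ran from -0.21 to 0.030 for IRAK1, -0.13 to 0.11 for TRAF6, -0.042 to 0.17 for SMAD4, -0.0043 to 0.12 for ROCK1 and -0.11 to 0.084 for HNRNPD. TNFSG against TNF ran from -0.12 to 0.036 for NUMB and -0.12 to 0.12 for HNRNPD, and TNFSG against SG from -0.12 to 0.045 for ROCK1. The difference of the TNF responses ran from -0.21 to 0.078 for IRAK1, -0.21 to 0.030 for TRAF6, -0.11 to 0.10 for SMAD4, -0.037 to 0.13 for ROCK1 and -0.12 to 0.14 for HNRNPD. The averages ran from -0.11 to 0.022 for HNRNPD over TNF, and from -0.12 to 0.0041 for TRAF6 and -0.056 to 0.061 for HNRNPD over targeting. The cause was not tested.

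With 3 libraries a group, the width of the intervals, given with each change, limits what these data can show of the targets. Median-ratio scaling took the median of all loci to 0.019 in SG against control and 0.025 in TNFSG against TNF. In the fit reported these medians were 0.085 and 0.081. Median-ratio scaling also changed the share of called loci that were higher. It took this share to 20.5% in SG against control and 24.4% in TNFSG against TNF, against 32.1% and 45.2% in the fit reported. For targeting over both treatments the share went to 22.5%, against 53.4%.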
